A study of Canis lupus familiaris with 24 samples.

Results

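*MafA*, *Glis3* and *Rfx6* are transcription factor genes of the endocrine pancreas, and their mRNA was measured by RT-qPCR in canine insulin-producing cells (IPCs) and in the undifferentiated cells that the IPCs were made from. The genes were taken by their symbols. They are 3 of the 26 genes in the tables and 3 of the 13 genes measured on day 13, the only day on which they have values. The tables list them with the RefSeq transcripts XM_003431814.3 (*MafA*), XM_022421745.1 (*Glis3*) and XM_022419390.1 (*Rfx6*).

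The series holds 24 samples in 6 groups of 4, of which the 8 samples of day 13 are described here. The control group is undifferentiated canine adipose-derived mesenchymal stem cells (cAD-MSCs), the fibroblast-like stromal cells of fat, kept in DMEM. The IPC group is taken to be the same 4 lines on day 13 of a protocol in 3 steps. Samples were matched to lines by the number in their labels, which the methods do not state. Each line came from the abdominal fat of a different healthy dog, from juvenile to adult, whose breed and sex are not in the labels. In the first 3 days, Chir99021 and Activin A were used to direct the cells toward definitive endoderm. The next 5 days were the pancreatic endocrine stage, during which the medium was changed to another. Between them, these media held taurine, retinoic acid, FGF2, EGF, an inhibitor of TGFβ, dorsomorphin, nicotinamide and DAPT. For the final 5 days the medium held taurine, nicotinamide, Glp-1, forskolin, and inhibitors of PI3K and of TGFβ. According to the methods, the colonies were put into alginate before this step, while the labels name no capsule. Medium, colony form and duration of induction changed together between the groups, so their effects cannot be told apart.

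MafA is a basic leucine zipper factor that binds the insulin gene promoter and is known as a mark of the mature beta cell. Glis3, a zinc finger protein, acts on insulin transcription and is needed to form and keep beta cells. Rfx6 is a winged-helix factor that acts after Ngn3 in the endocrine lineage and is needed for islet cell formation and insulin secretion. None of the 3 is regarded as a marker of mesenchymal stem cells.

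Relative to *Gapdh*, each of the 3 mRNAs had a higher level in all 4 IPC samples than in any control. The mean relative mRNA expression in IPCs was 284 ± 24.4 for *MafA*, 278 ± 78.3 for *Glis3* and 39.5 ± 12.2 for *Rfx6* (SD, n = 4), where 1 is the mean of the 4 controls. The threshold cycle (Ct) itself, the PCR cycle at which the product is detected, came earlier in IPCs for *MafA* and *Glis3*. It did not for *Rfx6*, whose mean Ct was 0.26 cycles later in IPCs, so a level of *Rfx6* above all controls was seen relative to *Gapdh* but not in the Ct alone. These are bulk samples, in which more cells with a transcript and more of it per cell (or, for a lower value, fewer and less) cannot be told apart.

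The ratio of *MafA* to *Gapdh* is given here per 10000 of *Gapdh*, with a doubling assumed in each cycle. It is not a count of copies, since Ct also depends on the primers. In the controls of lines 1 to 4 it was 0.620, 1.81, 0.411 and 1.11. In the IPCs of the same lines it was 245, 294, 292 and 292. The groups did not overlap, and the lowest IPC sample, line 1, was 135-fold above the highest control, line 2. The log2 change was 8.37, with an exact interval of 7.08 to 9.48 (97.1% confidence), and the exact two-sided Mann–Whitney test gave p = 0.0286 (n = 4 per group). That is the smallest p that 4 against 4 samples can give, and after Benjamini-Hochberg adjustment over the 13 genes it was 0.0338. Within lines, *MafA* was 395-fold, 162-fold, 710-fold and 264-fold above the control. The control values of *MafA* spanned 4.41-fold and those of IPCs 1.20-fold, so the span of the folds came mostly from the controls.

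*Glis3* had ratios of 0.664, 0.726, 0.351 and 0.556 per 10000 *Gapdh* in the controls of lines 1 to 4. The IPC samples had 130, 202, 113 and 194. Again no IPC sample overlapped with a control, and lines 2 and 4 were the higher pair among the IPCs. The log2 change was 8.13 (exact interval 7.28 to 9.17), with an exact p = 0.0286 for 4 against 4 samples (adjusted 0.0338). Within lines, the fold of *Glis3* was 196, 278, 322 and 350, a narrower range than that of *MafA*. The coefficient of variation was 28.7% in controls and 28.1% in IPCs.

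*Rfx6* was measured at 1.73, 0.746, 1.84 and 2.58 per 10000 *Gapdh* in the controls. In IPCs the ratios were 50.5, 49.3, 85.8 and 87.1, with lines 3 and 4 above lines 1 and 2. The groups did not overlap by this ratio, and the lowest IPC sample was 19.1-fold above the highest control. The log2 change of the ratio was 5.38 (exact interval 4.25 to 6.87), with an exact p = 0.0286 for 4 against 4 samples (adjusted 0.0338). Within lines, the ratio of *Rfx6* was 29.1-fold, 66.1-fold, 46.6-fold and 33.7-fold higher in IPCs. Line 2 had the lowest control value of *Rfx6* and the highest control value of *MafA*.

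**Figure D1:**
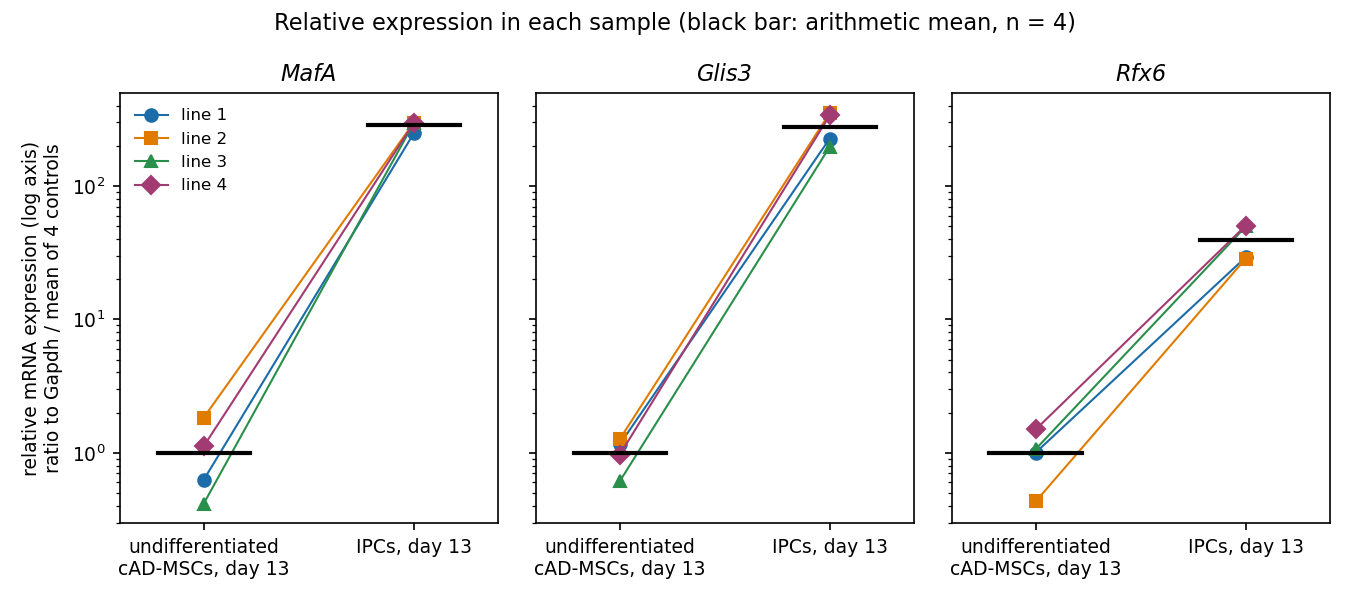
Relative mRNA expression of *MafA*, *Glis3* and *Rfx6* in each sample of day 13 on a log axis, as the ratio to *Gapdh* over the mean of the 4 controls, with a line joining the 2 samples of each cell line and a black bar for the arithmetic mean. The IPC samples lie at 248 to 298 for *MafA*, 197 to 352 for *Glis3* and 28.6 to 50.5 for *Rfx6*, above all controls, but for *Rfx6* this separation is absent in the raw Ct.

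A ratio above every control was not particular to these genes. By the same test, 11 of the 13 genes of day 13 were higher in IPCs (84.6%), and the 3 of 3 seen here stand beside that share. In size of change, *MafA*, *Glis3* and *Rfx6* were ranked 2, 3 and 5 of 13. The median relative expression was 278 over the 3 genes and 27.2 over all 13.

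The ratio joins the Ct of a gene with that of *Gapdh*, a glycolytic enzyme gene used as the reference, and both were looked at apart. The Ct of *MafA* in the controls of lines 1 to 4 was 35.48, 34.06, 35.93 and 35.16. In IPCs it was 32.12, 31.80, 31.55 and 32.24. Every IPC sample crossed the threshold before every control. The mean Ct of *MafA* fell by 3.23 cycles (exact interval -4.38 to -1.82, exact p = 0.0286, n = 4 per group, adjusted 0.0413 over the 13 genes). With no reference gene and a doubling assumed in each cycle, the arithmetic mean level of *MafA* in IPCs was 8.45-fold that of the controls.

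The Ct of *Glis3* was 35.38, 35.38, 36.15 and 36.15 in the controls of lines 1 to 4, so the 4 controls held only 2 distinct values. The origin of these identical pairs is not given in the sources used here, and the spread among the controls of *Glis3* may not be that of 4 separate measurements. The Ct in IPCs was 33.03, 32.34, 32.92 and 32.82, earlier than every control. The mean fell by 2.99 cycles (exact interval -3.81 to -2.35, exact p = 0.0286, n = 4 per group). Without a reference gene, the arithmetic mean level of *Glis3* in IPCs was 7.79-fold that of the controls.

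*Rfx6* crossed the threshold at 33.89, 35.16, 33.88 and 33.33 cycles in the controls. The IPC samples crossed it at 34.61, 34.77, 33.88 and 34.05. Here the groups overlapped, with a Ct later in IPCs in lines 1 and 4, earlier in line 2 and equal in line 3. The mean Ct of *Rfx6* was 34.1 ± 0.775 in controls and 34.3 ± 0.429 in IPCs (SD, n = 4). The difference of 0.26 cycles had an exact interval of -1.28 to 1.44 and an exact p = 0.543, and the interval allows a change of about 1 cycle in either direction.

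An earlier Ct in every IPC sample than in any control was found in 3 of the 13 genes (23.1%), of which *MafA* and *Glis3* are 2 and *NeuroD1*, a factor of endocrine differentiation, is the other. A later Ct in every IPC sample was found in 6 genes, with none of the 3 described here among them. The median Ct change over the 13 genes was 0.82 cycles later in IPCs.

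Ct and ratio together give the Ct of *Gapdh* that each ratio was made with. For *MafA* it had a mean of 21.6 ± 0.283 cycles in controls and 26.8 ± 0.285 in IPCs (SD, n = 4), a shift of 5.14 cycles without overlap (exact p = 0.0286). *Glis3* shared this *Gapdh* measurement with *MafA*, to within 0.00767 cycles in every sample. For *Rfx6* the *Gapdh* Ct went from 21.4 ± 0.0348 to 27.1 ± 0.102 cycles, a shift of 5.64 cycles (exact p = 0.0286, n = 4 per group). The *Gapdh* values behind *Rfx6* were those of *Nkx2.2* and differed from those behind *MafA* by 0.0657 to 0.607 cycles. Across the 13 genes there were 5 such sets of *Gapdh* values. In 4 of them the shift was 5.08 to 5.64 cycles, but in the set of *Glp1r* and *Glut2* it was 1.89 cycles. The values of that set differed from those of *Glis3* by nearly whole cycles. In controls of lines 1 to 4, *Glut2* had 22.50, 22.63, 22.35 and 23.01 and *Glis3* 21.50, 21.63, 21.35 and 22.02. In IPCs, *Glut2* had 24.77, 24.71, 24.45 and 24.14 and *Glis3* 26.77, 26.71, 26.45 and 27.13. The origin of these offsets is not given in the sources used here, and the set may not be a separate measurement. As a share of the log2 change of the ratio, the shift of *Gapdh* was 61.4% for *MafA*, 63.2% for *Glis3* and 105% for *Rfx6*. The amount of RNA or cDNA per reaction is not given in the sources used here, so less input and less *Gapdh* mRNA in IPCs cannot be told apart.

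**Figure D2:**
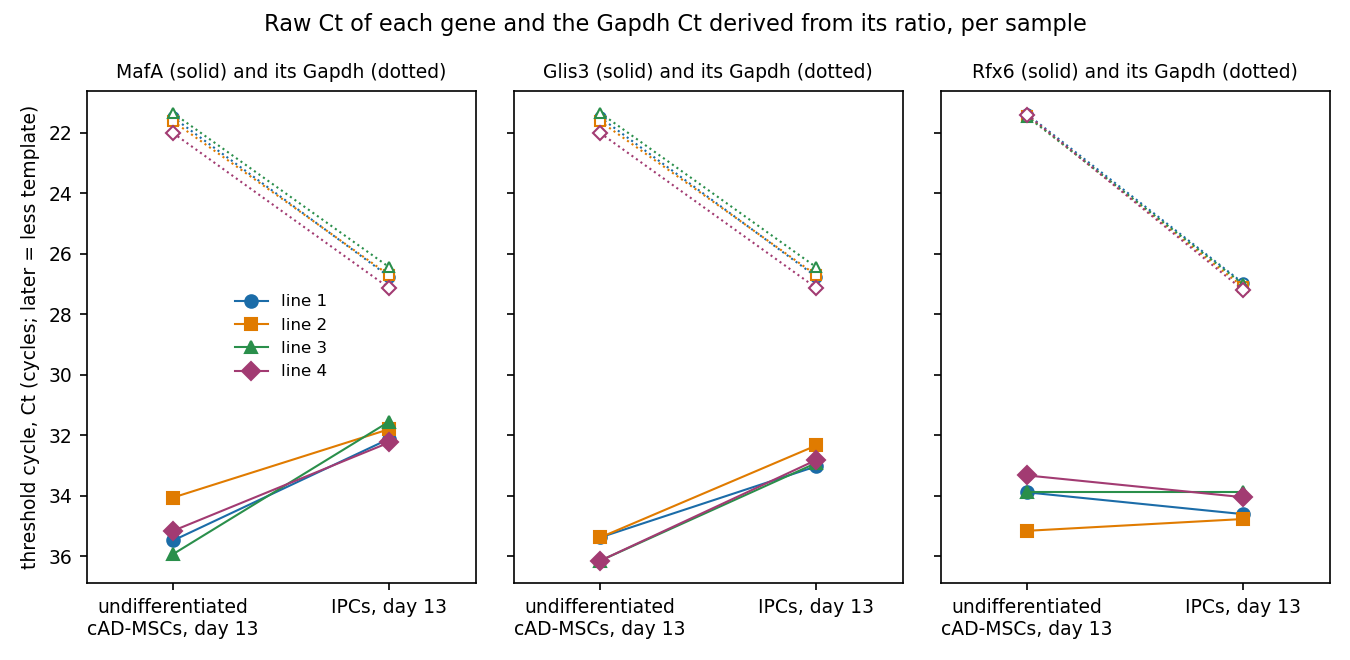
Raw Ct in cycles, with earlier values toward the top, of each gene (solid) and of its *Gapdh* (dotted) in the controls and IPCs of the 4 lines. *MafA* and *Glis3* moved to earlier cycles by 3.23 and 2.99 on average, *Rfx6* lay at 34.1 and 34.3 cycles, and *Gapdh* moved to later cycles by 5.14 for the first pair and 5.64 for *Rfx6*.

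**Figure D3:**
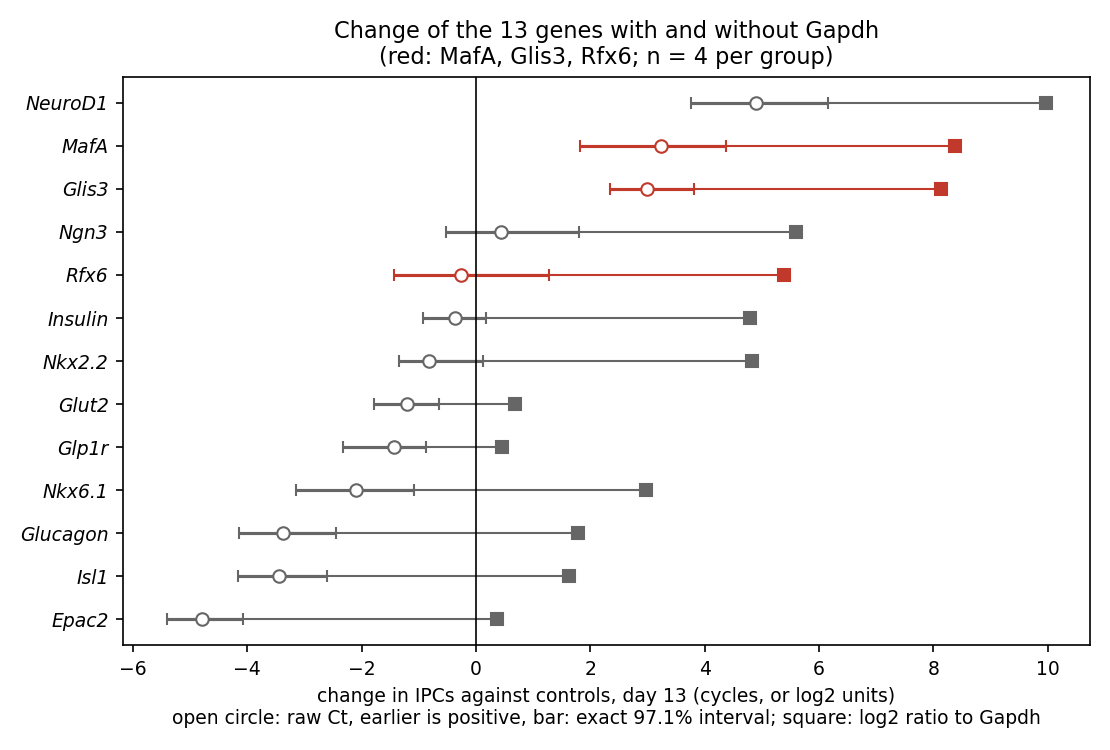
Change of the 13 genes of day 13 in IPCs against controls (n = 4 per group) by raw Ct (open circles, positive where earlier, with exact 97.1% intervals) and by the log2 ratio to *Gapdh* (squares). The intervals of *MafA* and *Glis3* lie above 0 without *Gapdh*, that of *Rfx6* spans 0, and all 3 squares lie above 0.

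The difference in Ct between a pair of genes within a sample contains no reference gene, and it was used to compare how much the genes changed. It assumes that the reactions of both genes had the same input. This was not tested, and the shift of *Gapdh* was unequal between the sets, most of all for *Glp1r* and *Glut2*. The same differences were therefore also taken from the ratios, each gene with its own *Gapdh*. Levels of different genes were not set against each other, since Ct also depends on the primers. *MafA* minus *Rfx6* was 1.59, -1.10, 2.05 and 1.83 cycles in controls (lines 1 to 4) and -2.49, -2.97, -2.33 and -1.81 in IPCs. The groups did not overlap, and the change was -3.49 cycles (exact interval -5.02 to -0.71, exact p = 0.0286, n = 4 per group, adjusted 0.0371 over all 78 pairs of the 13 genes). *MafA* therefore gained on *Rfx6* in 4 of 4 lines, and by the least in line 2, whose control stood apart from the other controls. From the ratios the gain of *MafA* on *Rfx6* was 2.99 log2 units (exact interval 0.46 to 4.74), also without overlap.

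*Glis3* minus *Rfx6* was 1.49, 0.22, 2.27 and 2.82 cycles in controls and -1.58, -2.43, -0.96 and -1.23 in IPCs. *Glis3* gained 3.25 cycles on *Rfx6* (change -3.25, exact interval -5.25 to -1.18), with the same exact p and adjusted value and in 4 of 4 lines. From the ratios this gain was 2.75 log2 units (exact interval 0.44 to 4.43), without overlap. Between *MafA* and *Glis3* the change was -0.24 cycles (exact interval -1.47 to 0.78, exact p = 0.686, n = 4 per group). The direction was split, with *MafA* ahead in lines 1 and 3 and *Glis3* in lines 2 and 4, and the interval leaves room for a difference of about 1 cycle either way.

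Over all 78 pairs, the groups did not overlap in 60 by raw Ct (76.9%) and in 64 by the ratios. Against the 12 other genes they did not overlap in 11 comparisons of *MafA*, 11 of *Glis3* and 6 of *Rfx6*. *MafA* and *Glis3* each gained on 10 of the 12, and on 10 by the ratios too. Both rose less than *NeuroD1*, by 1.66 cycles for *MafA* (exact interval 0.58 to 2.59) and 1.91 for *Glis3* (exact interval 0.85 to 3.12). The largest gains were over *Epac2*, a cAMP sensor of insulin release, with 8.02 cycles for *MafA* and 7.77 for *Glis3*. By raw Ct, *Rfx6* gained on 3 genes (*Epac2* by 4.52 cycles, *Isl1* by 3.18 and *Glucagon* by 3.11), lost to *MafA*, *Glis3* and *NeuroD1*, and overlapped with the other 6. The overlaps depended on the setting. By the ratios, *Rfx6* gained on 6 genes, with *Glp1r* (4.92 log2 units, against 1.17 cycles in raw Ct), *Glut2* (4.70, against 0.94) and *Nkx6.1* (2.40, against 1.84) added, and the groups overlapped only for *Insulin*, *Ngn3* and *Nkx2.2*. The added gains on *Glp1r* and *Glut2* rest on their *Gapdh* set, which lay nearly whole cycles from that of *Glis3*. In controls of lines 1 to 4, the raw Ct of *Glut2* itself was 37.38, 37.38, 37.15 and 37.65. That of *Glis3* was 35.38, 35.38, 36.15 and 36.15, with the same decimals in lines 1 to 3. The control values of *Glut2* may therefore not be separate measurements either, which limits every comparison with *Glut2*, also by raw Ct. Within lines, the raw Ct of *Rfx6* gained on *Glp1r* and *Nkx6.1* in 4 of 4 lines as well, where the exact p between the groups of 4 was 0.0571.

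**Figure D4:**
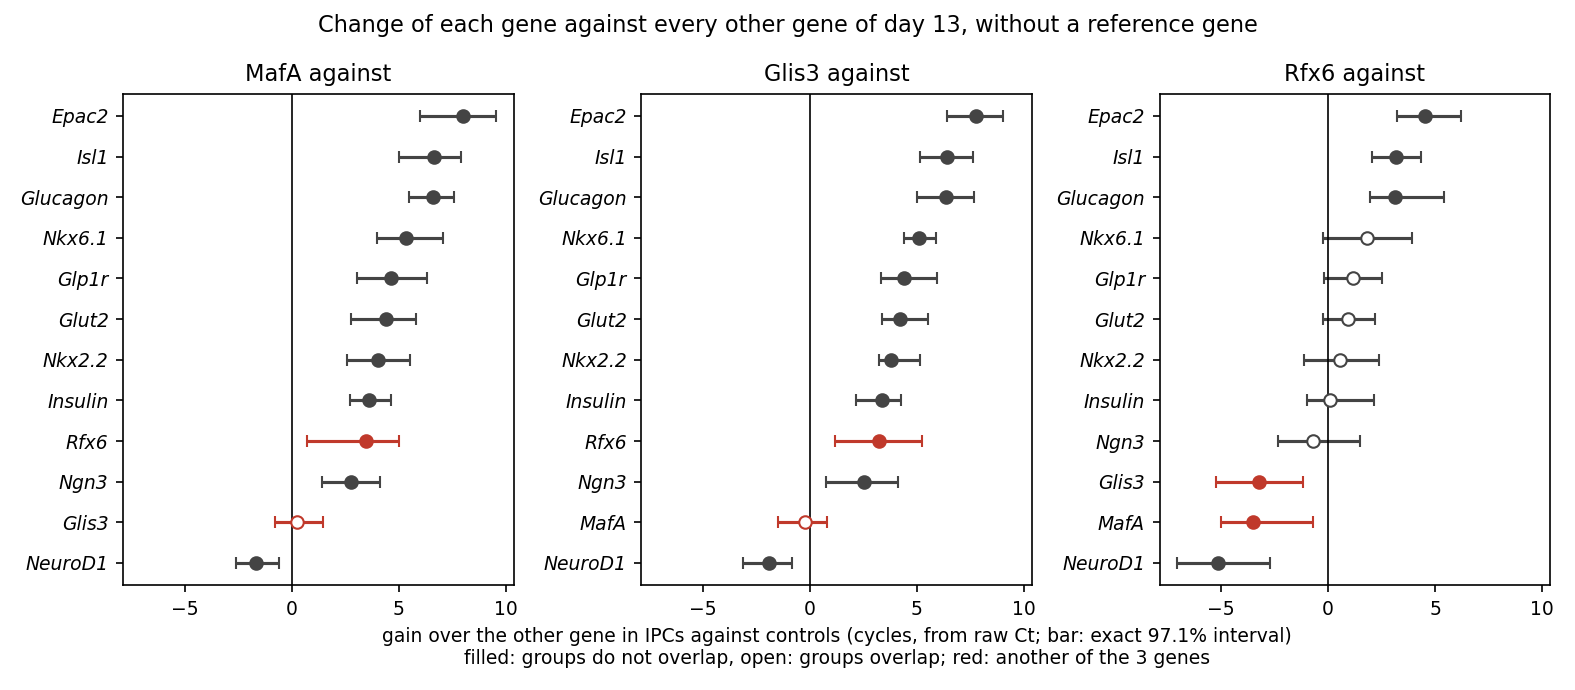
Change of *MafA*, *Glis3* and *Rfx6* against each of the 12 other genes of day 13, in cycles from raw Ct, with exact 97.1% intervals (filled points where the groups do not overlap, n = 4 per group). *MafA* and *Glis3* gained on 10 genes each and lost to *NeuroD1*, while *Rfx6* gained on 3 and lost to 3 (by the ratios to *Gapdh* it gained on 6, with *Glp1r*, *Glut2* and *Nkx6.1* added). The *Gapdh* values of *Glp1r* and *Glut2* lay nearly whole cycles from those of *Glis3*. The raw control Ct of *Glut2* may also not be separate from that of *Glis3*.

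*Insulin*, the hormone gene that MafA and Glis3 act on, was among the genes gained upon. *MafA* rose by 3.60 cycles more than *Insulin* (exact interval of the change -4.63 to -2.73, exact p = 0.0286, n = 4 per group) and *Glis3* by 3.35 cycles more (exact interval -4.28 to -2.18, the same exact p). For *Rfx6* against *Insulin* the change was -0.10 cycles (exact interval -2.14 to 0.97, exact p = 0.686).

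As a check of the cell label, *Insulin* stood at a mean Ct of 36.5 in controls and 36.9 in IPCs, with overlapping groups, and its ratio to *Gapdh* was 27.2-fold that of controls. *Glucagon*, the alpha cell hormone gene, went from 36.3 to 39.7 cycles, close to the highest Ct in the tables, 40, and no marker of mesenchymal cells was measured on day 13. The 24 Ct values of *MafA*, *Glis3* and *Rfx6* lay between 31.55 and 36.15 cycles of a PCR of 45.

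The pattern most like that of *MafA* over the 8 samples was that of *Glis3*, with a root mean square difference of 0.496 in log2 relative expression, followed by *NeuroD1* at 1.19. For *Glis3* the nearest were *MafA* at 0.496 and *NeuroD1* at 1.37. The nearest to *Rfx6* were *Ngn3*, the factor that starts endocrine commitment, at 0.711 and *Insulin* at 0.814, with *Nkx2.2* at 0.818. *MafA* and *Glis3* shared their *Gapdh* values, as did *Rfx6* and *Nkx2.2*, so the distance within each of these pairs does not depend on the reference. The other distances were between genes of different *Gapdh* sets and do depend on it. The order of *Ngn3*, *Insulin* and *Nkx2.2*, whose distances from *Rfx6* were close, is therefore not certain. The Ct of *Ngn3* was identical in control and IPCs of line 2 (34.02) and of line 4 (33.69). That of *Rfx6* was identical in line 3 (33.88). The origin of these identical values is not given in the sources used here, and they may not all be separate measurements.

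The other transcription factors of the endocrine lineage on day 13 (*Ngn3*, *NeuroD1*, *Nkx6.1*, *Nkx2.2* and *Isl1*) were higher in IPCs relative to *Gapdh* in 5 of 5, from 3.26-fold for *Isl1*, a LIM homeodomain factor, to 954-fold for *NeuroD1*. Without a reference, 1 of these 5 came earlier, 2 later and 2 overlapped. Among the hormone, transport and signaling genes (*Insulin*, *Glucagon*, *Glut2*, *Glp1r* and *Epac2*), 3 of 5 were higher relative to *Gapdh*, from a value of 1.32 for *Epac2*, which overlapped with controls, to 27.2 for *Insulin*. In raw Ct none of these 5 came earlier, 4 came later and 1 overlapped. The median relative expression was 27.7 for the factors and 1.62 for the second list, beside 278 for *MafA*, *Glis3* and *Rfx6*. The value of the second list depended on the *Gapdh* set of *Glp1r* and *Glut2*. With 1 common *Gapdh* Ct per sample, *Glp1r* was at 12.5 in place of 1.35 and *Glut2* at 15.6 in place of 1.62. The medians were then 20.0 for the factors, 12.5 for the second list, of which 4 of 5 were higher than controls, and 277 for *MafA*, *Glis3* and *Rfx6*.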

How the data were processed

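RNA was extracted with TRIzol and Direct-zol, reverse transcribed with ImProm-II and amplified with SYBR Green in 45 cycles. The authors deposited unnormalized Ct values, in cycles, and the linear ratio of each gene to *Gapdh* (2 to the power of minus ΔCt). A table of the authors' own fold changes was not used. Replicate wells, amplification efficiencies and RNA input are not given in the sources used here. Ct values have no depth in the sense of counts, and late values are the least precise.

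Samples were grouped by their labels. Relative mRNA expression was the ratio over the mean of the 4 controls. The test was an exact two-sided Mann–Whitney test by enumeration, after the methods, so a gene was called only where the groups did not overlap (next exact p 0.0571). The exact interval runs from the lowest to the highest of the pairwise differences between groups. The *Gapdh* Ct was Ct plus log2 of the ratio, and genes whose values lay within 0.1 cycles were taken to share a *Gapdh* measurement. The genes named were the 3 genes, the nearest 2 of each, and the lowest and highest of 2 lists of 5 genes, and others were named where a count or comparison turned on them, with their values seen. The members and lists were chosen with earlier results of these data known.

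Each line came from its own donor, as the methods state. Samples with the same number in their labels were taken as the same line and so as paired, which the methods do not state. Deviations from the group means correlated between the paired samples across the 13 genes with r of 0.15, 0.54, 0.40 and -0.12 for lines 1 to 4. Alternatives were raw Ct, the mean Ct of the 10 other genes, a common *Gapdh* Ct, a factor of 1.8 per cycle, geometric means, a permutation test, limma without a block and with the line as replicate block, changes within lines, a filter on late Ct, and leaving out each line.

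Python 3.11.15, numpy 2.4.6, scipy 1.17.1, pandas 2.3.3, matplotlib 3.10.9, R 4.3.3 and limma 3.58.1 were used, and the tests were checked on simulated data. Of the gene symbols, 3 of 3 were found in the RefSeq gene table of the dog, and 0 of 3 transcript accessions. No genome build is named with the tables, so no coordinates or sequences are given.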

Additional observations from a re-analysis of the deposited data

Results flagged for a closer look

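The ratio of *MafA* to *Gapdh* in the IPCs of line 1, 0.0245, lay below the other 3 IPC samples, whose ratios were 0.0292 to 0.0294. The gap was 0.947 of the range of the group, above Dixon's critical value for 4 samples. It was the only such sample in 18 groups of *MafA*, *Glis3* and *Rfx6* values, and chance marks about 1 in 20 groups. Without line 1, the relative expression of *MafA* was 264.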

How the results depend on the processing

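*MafA* and *Glis3* kept their direction and call under each of the 15 alternatives, with relative expression from 8.45 to 387 and from 7.79 to 312. The lowest values came from raw Ct. Against the mean Ct of the 10 other genes they were 20.7 and 18.2, and with a factor of 1.8 per cycle 123 and 118. *Rfx6* kept its call in 13 of 15 alternatives. Its value was 0.784 in raw Ct, in the opposite direction and with overlapping groups, and 1.75 against the 10 other genes, where the groups overlapped (exact p = 0.0571). With 1 common *Gapdh* Ct per sample, *Rfx6* was at 27.2, and 12 of the 13 genes were called. The number of the 13 genes higher in IPCs went from 11 to 3 in raw Ct and to 5 against the 10 other genes, and the number lower went from 0 to 6 and to 3. By construction, these settings remove the shift of *Gapdh*. Some other alternatives could not change the call of *MafA*, *Glis3* or *Rfx6*, because the groups did not overlap by the ratio. They were the factor of 1.8 per cycle, geometric means, the permutation test, changes within lines and leaving out each line. For the call, those alternatives are no test.

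Leaving out each line in turn gave 235 to 387 for *MafA*, 256 to 312 for *Glis3* and 36.3 to 43.0 for *Rfx6*. Groups that did not overlap cannot come to overlap when samples are left out, so only the range of values is informative. The differences were -4.03 to -3.20 cycles for *MafA* against *Rfx6*, -3.45 to -2.98 for *Glis3* against *Rfx6*, and -0.58 to 0.06 for *MafA* against *Glis3*. With 3 lines no exact p can go below 0.1.

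In the paired analysis, with the line as a replicate block in limma, the geometric relative expression was 331 for *MafA*, 280 for *Glis3* and 41.7 for *Rfx6*, and 11 genes were called with and without the block. It changed no call. Within lines, all 13 genes went up relative to *Gapdh* in 4 of 4 lines, and 66 of 78 pairs of genes differed in 1 direction in all 4. For genes and pairs whose groups did not overlap, that outcome was fixed in advance. A filter on late Ct left 10 genes, with *MafA*, *Glis3* and *Rfx6* among them, of which 8 were called. It kept every gene whose mean Ct was below 35 in at least 1 group. The control means of *MafA* and *Glis3* were later than that, at 35.2 and 35.8 cycles. Both genes stayed only through their IPC means, 31.9 and 32.8 cycles. Since a rise in IPCs is itself enough to pass, the filter is no test of *MafA* or *Glis3*.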
